A study of Mus musculus with 18 samples.

Results

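The mesothelial genes described here are 10 genes known from mesothelium, Msln, Upk3b, Upk1b, Wt1, Krt8, Krt18, Krt19, Lrrn4, Gpm6a and Muc16. They were chosen by name, with earlier results of these data known. Each is read by the probe set that names it alone, and all 10 were found among the 19938 genes that the arrays read in this way. They were followed in adipocytes from 2 depots of male C57BL/6J mice fed standard chow at 6, 14 and 18 months of age, with no transgene and no treatment in any group. Bone marrow adipocytes were flushed from femurs and tibias and floated off after lysis of red blood cells, and epididymal adipocytes, which the labels call peripheral, were floated off a collagenase digest of the fat pad. Neither preparation was sorted. Each of the 6 groups had 3 Affymetrix arrays, each read 1 of 3 RNA pools from 6 to 10 animals, and the same mice gave both cell types, so a replicate is a pool and the p values speak of the spread between pools. All levels below are the deposited log2 values, and a difference of 1 on this scale is a fold of 2. When each age was harvested was not analysed here, so the effects of age and of handling cannot be told apart.

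Mesothelium is the flat epithelium that covers the abdominal organs and the fat pads that hang in the body cavity, and the epididymal fat pad carries such a cover while marrow does not. Its cells hold simple epithelial keratins, carry mesothelin and the mucin that binds it on their free surface, and express the transcription factor Wt1. Mature fat cells are not known for these genes, so in a floated fat cell preparation they may be read from cells other than adipocytes. Since the RNA was bulk RNA, fewer mesothelial cells and less RNA per cell cannot be told apart. A level also cannot be set against that of another gene on these arrays, and the deposited table holds no detection call, so values in bone marrow may lie at or near background and the folds against them are as measured.

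The cell preparations were checked against 9 fat cell genes (Adipoq, Plin1, Cidec, Lep, Fabp4, Retn, Pparg, Lipe, Slc2a4). Their mean level was 11.89 to 12.39 in the 9 epididymal arrays and 6.34 to 7.03 in the 9 bone marrow arrays, and all 9 were lower in bone marrow. The mean of 8 neutrophil genes was 12.22 to 12.74 in bone marrow and 5.33 to 9.54 in epididymal arrays, and all 8 were higher in bone marrow. Gene by gene, the bone marrow arrays thus had less fat cell RNA and more neutrophil RNA than the epididymal ones, and what share of their cells were adipocytes cannot be read from these values. A pair of 6-month epididymal arrays also stood apart. Replicate 1 had a neutrophil mean of 9.54, where the other epididymal arrays of all ages reached at most 7.51. Replicate 2 had the epididymis duct gene Gpx5 at 5.86, with 3.14 and 3.60 in the other 6-month replicates. With both arrays left out, replicate 3 alone remains at that age, so log2 changes and no counts are given for that setting.

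Between the depots, 7 of the 10 mesothelial genes were lower in bone marrow adipocytes over the 3 ages, by 2.43-fold for Wt1 to 8.63-fold for Upk3b, at an adjusted p under 0.05 in limma and a fold of at least 2. All 10 had a negative log2 difference, bone marrow minus epididymal. The share of all tested probe sets called lower was 11.6%, and the share called higher was 10.2%. The median log2 difference of the 10 genes was -1.73, and that of all 23410 tested probe sets was -0.020. The 3 that were not called were Muc16, Krt8 and Krt18. For 5 genes, Msln, Upk3b, Upk1b, Krt19 and Lrrn4, the highest of 9 bone marrow values was under the lowest of 9 epididymal ones, as for 15.3% of all tested probe sets.

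**Figure D1:**
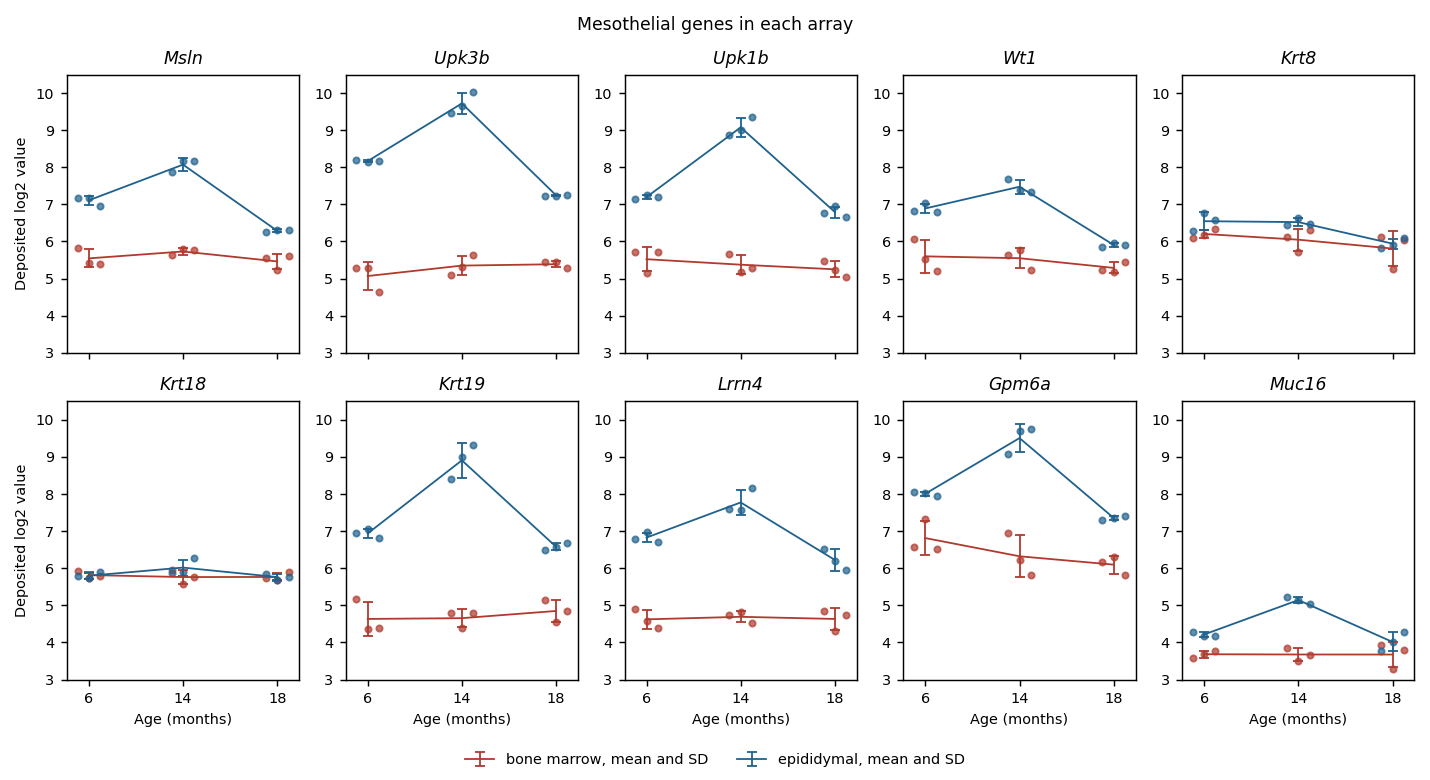
Deposited log2 value (y axis) of each mesothelial gene in each of the 18 arrays by age in months (x axis), with points for arrays and with lines and bars for group means and SD (n = 3), colored by depot. Upk3b in epididymal adipocytes went from 8.17 at 6 months to 9.72 at 14 and 7.24 at 18, while its bone marrow means stayed between 5.07 and 5.39.

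Upk3b, a small membrane protein of the uroplakin family, had the widest gap between depots of the 10. Its epididymal values were 8.19, 8.13 and 8.17 at 6 months, 9.47, 9.66 and 10.03 at 14 and 7.24, 7.23 and 7.27 at 18. In bone marrow the same probe set read 5.29, 5.28 and 4.63, then 5.10, 5.32 and 5.63, then 5.44, 5.44 and 5.29. No bone marrow array came within 1 log2 unit of an epididymal one, and the epididymal arrays fell into 3 separate age groups, 14 months highest and 18 months lowest. Over the ages it was lower in bone marrow by a log2 difference of -3.11 (standard error 0.099, limma adjusted p = 1.04e-15). The gap was -4.37 at 14 months and -1.86 at 18.

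Upk1b is a tetraspanin of the same family. In epididymal adipocytes it stood at 7.14, 7.25 and 7.19, at 8.86, 9.01 and 9.36 and at 6.76, 6.96 and 6.66 at the 3 ages in order. The bone marrow arrays read 5.72, 5.15 and 5.70 at 6 months, 5.67, 5.18 and 5.28 at 14 and 5.47, 5.24 and 5.05 at 18. The depots did not overlap, and the 14-month epididymal arrays lay well above the rest. The difference over the ages was -2.31 (standard error 0.099, limma adjusted p = 9.98e-14), or 4.95-fold.

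Msln encodes mesothelin, a surface protein anchored by a lipid tail. The epididymal values of Msln were 7.18, 7.18 and 6.97 at 6 months, 7.87, 8.17 and 8.18 at 14 and 6.24, 6.32 and 6.30 at 18. Bone marrow gave 5.83, 5.41 and 5.40 at 6 months, 5.63, 5.79 and 5.77 at 14 and 5.56, 5.23 and 5.60 at 18. The depots were again apart at every age, most narrowly at 18 months, where the difference of -0.82 missed the fold of 2. Over the ages the log2 difference of Msln was -1.58 (standard error 0.078, limma adjusted p = 8.89e-13).

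Muc16, the large mucin that mesothelin binds, was read at 4.28, 4.19 and 4.18 at 6 months, 5.23, 5.15 and 5.05 at 14 and 3.76, 4.01 and 4.27 at 18 in epididymal adipocytes. Its 9 bone marrow values ran from 3.29 to 3.94. The depots were apart at 6 and at 14 months, and at 18 months the lowest epididymal array fell among those of bone marrow. Its difference over the ages, -0.78 (limma adjusted p = 2.58e-07), was under the fold of 2, and it passed both limits only at 14 months, -1.47 (limma adjusted p = 1.67e-07).

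Krt19, Krt8 and Krt18 encode keratins of simple epithelia, and Krt8 and Krt18 pair with each other in one filament. Krt19 was at 6.94, 7.06 and 6.81 at 6 months, 8.40, 9.01 and 9.31 at 14 and 6.49, 6.56 and 6.69 at 18 in epididymal adipocytes. The 9 bone marrow values of Krt19 ran from 4.36 to 5.16. Of the 3 keratins it was the one with depots fully apart, by -2.76 over the ages (standard error 0.13, limma adjusted p = 3.77e-13, 6.79-fold). Krt8 gave 6.29, 6.78 and 6.57, then 6.45, 6.64 and 6.48, then 5.82, 5.92 and 6.09 in epididymal adipocytes of rising age. In bone marrow Krt8 lay between 5.26 and 6.34, so the depots overlapped except at 14 months. The difference of -0.32 (limma adjusted p = 0.0202) passed the p limit and not the fold. Krt18 was at 5.67 to 6.27 in all epididymal arrays and 5.58 to 5.94 in all bone marrow arrays, and its difference of -0.078 (standard error 0.072, limma adjusted p = 0.378) was not called.

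Lrrn4 encodes a membrane protein with leucine-rich repeats. Epididymal Lrrn4 was 6.80, 6.97 and 6.71 at 6 months, 7.61, 7.56 and 8.15 at 14 and 6.53, 6.19 and 5.96 at 18. Bone marrow Lrrn4 lay between 4.31 and 4.90 in the 9 arrays, with no overlap. The log2 difference was -2.29 (standard error 0.11, limma adjusted p = 3.44e-13).

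Gpm6a, a membrane glycoprotein best known from neurons, read 8.06, 8.02 and 7.95 at 6 months, 9.08, 9.69 and 9.75 at 14 and 7.30, 7.35 and 7.41 at 18 in epididymal adipocytes. Its bone marrow values were more scattered, 6.58, 7.34 and 6.53 at 6 months, 6.94, 6.21 and 5.82 at 14 and 6.17, 6.30 and 5.82 at 18. One 6-month bone marrow array lay among the 18-month epididymal arrays, although at each single age the depots were apart. The difference over the ages was -1.88 (standard error 0.14, limma adjusted p = 5.87e-10).

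Wt1, a zinc finger transcription factor of mesothelium and of some visceral fat progenitors, was at 6.82, 7.04 and 6.81 at 6 months, 7.69, 7.40 and 7.34 at 14 and 5.86, 5.96 and 5.89 at 18 in epididymal adipocytes. In bone marrow it was at 6.07, 5.53 and 5.20, at 5.64, 5.76 and 5.24 and at 5.23, 5.18 and 5.46. The depots were apart at each age, and the highest bone marrow array exceeded the 18-month epididymal ones. Its difference over the ages was -1.28 (standard error 0.10, limma adjusted p = 1.60e-09), and at 18 months it was -0.62, under the fold of 2.

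Age by age, bone marrow had lower levels of 7 of the 10 genes at 6 months, 8 at 14 months and 5 at 18 months, while 11.8%, 11.5% and 12.9% of all tested probe sets were. Muc16 joined at 14 months, and Msln, Wt1 and Muc16 were not called at 18 months. The median log2 difference of the genes was -1.43 at 6 months, -2.71 at 14 and -1.04 at 18. Ribosomal protein genes differed between depots, and scaling the arrays to set 55 of them equal shifted the median of all tested probe sets by -0.70 over the ages. Under that scaling Krt8 and Muc16 were also called lower in bone marrow over the ages, at -1.01 and -1.48, and no called direction turned. Age by age, it added calls for Krt8 and Muc16 at 6 months (-1.21 and -1.40) and for Krt8 at 14 months (-1.04). At 18 months it added Msln and Wt1 (-1.48 and -1.27), so the lower count at that age depends on the scaling.

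**Figure D2:**
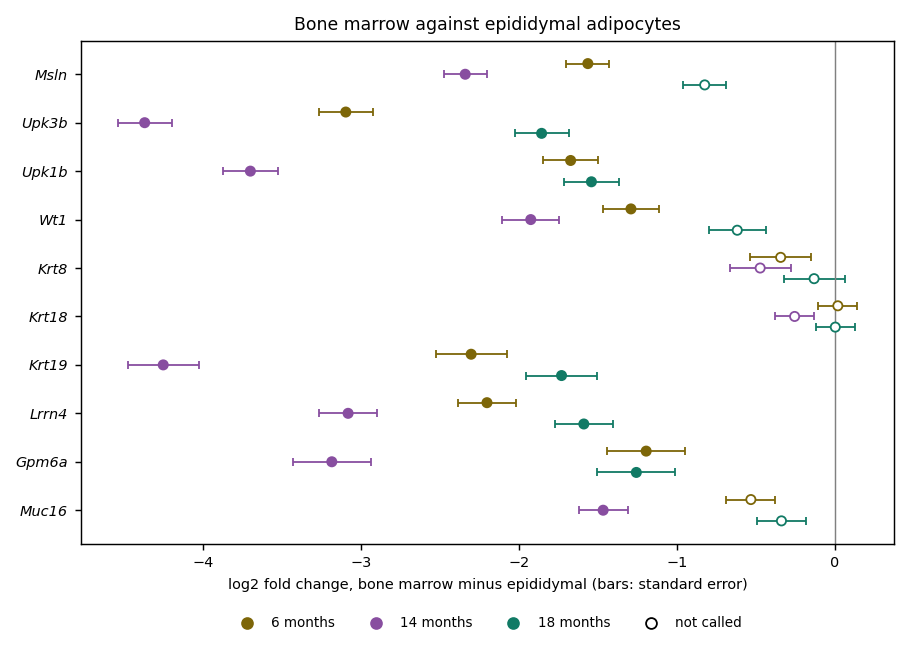
Log2 difference, bone marrow minus epididymal adipocytes (x axis), of each gene (y axis) at 6, 14 and 18 months, with bars for the standard error and filled points for calls. The 14-month point lies farthest to the left for every gene, from -4.37 for Upk3b to -0.26 for Krt18.

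With age, the mesothelial genes of epididymal adipocytes did not move in one direction. From 6 to 14 months 8 of the 10 rose and none fell, while 10.2% of all tested probe sets rose at the same limit, an adjusted p under 0.05. From 14 to 18 months 9 fell, with 12.5% of all probe sets falling, and from 6 to 18 months 5 fell, with 8.01% falling. The median log2 change of the 10 genes was 0.95, -1.68 and -0.60 in these comparisons, beside -0.037, -0.011 and -0.062 over all tested probe sets. The 3 comparisons share their groups, so they are not separate observations. An order of all 18-month arrays below all 6-month arrays below all 14-month arrays, which was noticed after the values were seen, held for 7 genes (Msln, Upk3b, Upk1b, Wt1, Krt19, Lrrn4, Gpm6a) and for 4.11% of all tested probe sets.

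Among the surface proteins, Upk1b rose by 1.88 from 6 to 14 months (standard error 0.17, limma adjusted p = 2.40e-07). Upk3b rose by 1.56 (limma adjusted p = 2.29e-06) and then fell by 2.48 to 18 months (limma adjusted p = 3.97e-09), the widest fall of the 10. Msln rose by 0.96 and then fell by 1.78. These 3 genes thus took the same course, up and then down past the start for Upk3b and Msln, which at 18 months were lower than at 6 by -0.92 and -0.82 (limma adjusted p = 0.00112 and 4.09e-04). For Upk1b the 6-to-18-month change was -0.40 (limma adjusted p = 0.123) and was not called. Muc16 rose by 0.93 (limma adjusted p = 2.65e-04), fell by 1.13 and was not called at 18 against 6 months, -0.20.

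Krt19 made the largest rise of the 10 at 14 months, 1.97 (standard error 0.23, limma adjusted p = 3.74e-06), and fell by 2.33 to 18 months. The keratin genes Krt8 and Krt18 did not follow it. Krt8 had -0.025 (standard error 0.19, limma adjusted p = 0.951) and Krt18 0.22 (standard error 0.12, limma adjusted p = 0.266) from 6 to 14 months. Krt8 was called lower at 18 months, by -0.61 against 6 months (limma adjusted p = 0.0394) and -0.58 against 14 months (limma adjusted p = 0.0347). Both calls were close to the limit. The first was lost without any of 5 single arrays, 6-month replicates 2 and 3 (-0.49 and -0.59) and 18-month replicates 1, 2 and 3 (-0.54, -0.59 and -0.68). The second was lost without any of 5 single arrays, 14-month replicates 1, 2 and 3 (-0.62, -0.52 and -0.60) and 18-month replicates 1 and 2 (-0.52 and -0.57). Centring each array on its median also ended both, at -0.54 and -0.39.

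Gpm6a rose by 1.50 at 14 months (standard error 0.25, limma adjusted p = 2.26e-04) and fell by 2.15 from there, and Lrrn4 rose by 0.95 (limma adjusted p = 0.00116) and fell by 1.55. From 6 to 18 months Gpm6a had -0.65 (limma adjusted p = 0.0810), which was not called and became a call without bone marrow arrays that serve the shared error alone, 6-month replicate 2 or 14-month replicate 1, with adjusted p of 0.0472 and 0.0394. Lrrn4 had -0.60 (limma adjusted p = 0.0330), a call lost without any 6-month epididymal replicate (-0.62, -0.53 and -0.66 for 1, 2 and 3) or without 18-month replicates 2 or 3 (-0.59 and -0.47). Wt1 had the smallest called rise, 0.58 (standard error 0.18, limma adjusted p = 0.0295), and the largest fall between 6 and 18 months, -0.98 (limma adjusted p = 9.87e-04). The rise of Wt1 lost its call without 6-month replicates 1 or 3 (0.55 and 0.54) or 14-month replicates 1 or 2 (0.48 and 0.62), and with arrays centred on the median (0.46). With both 6-month arrays that stood apart left out, replicate 3 alone is left at 6 months. The 6-to-18-month changes were then -0.63 for Krt8 and -0.49 for Lrrn4, beside -0.61 and -0.60 with all arrays. The 14-month rise of Wt1 was 0.67, beside 0.58.

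**Figure D3:**
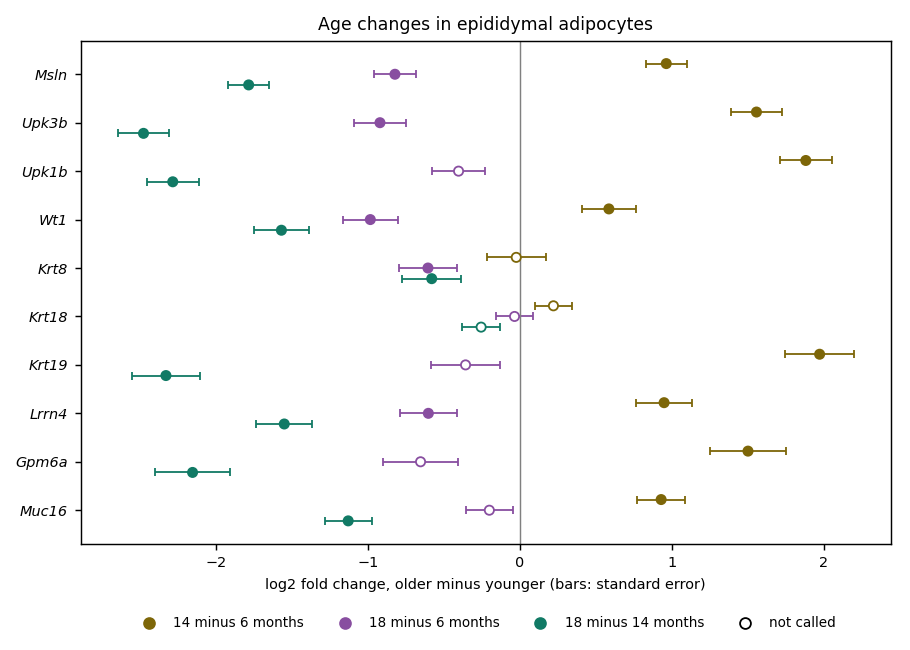
Log2 change with age in epididymal adipocytes (x axis) of each gene (y axis) for 14 against 6, 18 against 6 and 18 against 14 months, with bars for the standard error and filled points for calls. Krt19 at 14 months lies at 1.97 and Upk3b at 18 against 14 months at -2.48, while the points of Krt18 lie between -0.26 and 0.22.

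In bone marrow adipocytes none of the 10 genes was called with age, in any of the 3 comparisons. Of all tested probe sets, 8.66% were called between 6 and 14 months, 8.50% between 6 and 18 and 13.0% between 14 and 18, in either direction. At an unadjusted p under 0.05 limma gave 0, 1 and 0 of the 10 genes, and an ordinary analysis of variance also called 0 in each comparison. The single one was Gpm6a at 18 against 6 months, -0.72 (limma adjusted p = 0.0793), which became a call without 6-month bone marrow replicate 3 (-0.86, adjusted p = 0.0380) or without 14-month replicate 1 (-0.72, adjusted p = 0.0404). Without that last array Gpm6a was also called at 14 against 6 months (-0.80, adjusted p = 0.0443).

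The difference of the age changes was then tested itself, as the change in bone marrow minus the change in epididymal adipocytes. For 14 against 6 months it was called for 7 of the 10 genes, Msln, Upk3b, Upk1b, Krt19, Lrrn4, Gpm6a and Muc16, all with the smaller change in bone marrow, and 6.53% of all tested probe sets were called in that direction. With ribosomal protein genes set equal the count was 4, since Msln (-0.48, adjusted p = 0.183), Muc16 (-0.64, adjusted p = 0.0928) and Lrrn4 (-0.58, adjusted p = 0.176) lost their calls. Upk1b had a difference of -2.03 (standard error 0.24, limma adjusted p = 1.39e-05). Gpm6a had -1.99, Krt19 -1.95 and Wt1, which was not called, -0.63 (limma adjusted p = 0.125). Wt1 became a call without bone marrow 6-month replicate 3 (-0.84), while the call for Lrrn4, -0.88, was lost without 6 single arrays, at -0.69 to -0.90. Those were replicate 1 at 6 months and replicates 1 and 3 at 14 months of bone marrow, and replicates 1 and 3 at 6 months and 3 at 14 months of epididymal adipocytes. For 18 against 6 months Upk3b and Msln were called, with the fall seen in epididymal adipocytes alone, at 1.24 and 0.74 (limma adjusted p = 0.00392 and 0.0231), beside 3.49% of all tested probe sets called in that direction. Msln lost this call without bone marrow 18-month replicates 1 or 3 (0.69 and 0.67), epididymal 18-month replicate 1 (0.72) or epididymal 6-month replicate 2 (0.70), and Wt1 became one without bone marrow 6-month replicate 1 (0.91). Without both 6-month epididymal arrays that stood apart, which leaves replicate 3 alone at that age, Msln had 0.60. The 14-month difference of Lrrn4 was -0.99 in that setting.

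Another 16 genes known from mesothelium were read beside these (Bnc1, Aldh1a2, Pdpn, Calb2, Cldn15, Krt7, Rspo1, Nkain4, Tbx18, Slpi, Dmkn, Itln1, Ezr, Ildr2, Prg4, Cdh2). At the fold of 2, 3 were lower and 2 higher in bone marrow, beside 11.6% and 10.2% of all tested probe sets. Without the fold limit 10 were lower and 3 higher, and the share of all probe sets without it is not given here. The median log2 difference over the 16 was -0.63. Pdpn, the podoplanin gene, Nkain4 and Prg4, which encodes a lubricating proteoglycan, were lower at the fold of 2, by -2.36, -1.88 and -1.69. Ezr, which links membrane and actin, and the protease inhibitor gene Slpi, which leukocytes also use, were higher there, by 2.39 and 1.92. With age in epididymal adipocytes, 12 of the 16 rose from 6 to 14 months and 12 fell from 14 to 18 months, with a median change of 0.70 and -1.06. Of all tested probe sets 10.2% rose and 12.5% fell in these comparisons. Pdpn rose by 1.70, Aldh1a2, which makes retinoic acid, by 1.63, Nkain4 by 1.57 and the transcription factor gene Bnc1 by 1.16. Calb2, Dmkn and Prg4 were not called at 14 months, and Itln1, called lower by -0.36, lost its call without epididymal 6-month replicate 3 or 14-month replicates 1 or 3. Against 6 months the 18-month arrays had 2 genes lower, Pdpn at -0.92 and Prg4 at -1.29, while 8.01% of all tested probe sets were lower. Without bone marrow 6-month replicate 1, which serves the shared error alone, 4 fell at 18 months.

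The genes of Upk3b's own family that mark urothelium, Upk1a, Upk2 and Upk3a, were called in no comparison between depots over the ages or between ages of epididymal adipocytes (1 of 3 at an unadjusted limma p under 0.05 between depots, 0 of 3 between ages, and 0 called by an ordinary analysis of variance). Their mean level was 5.40 to 5.85 in epididymal arrays and 5.28 to 5.71 in bone marrow arrays. The 9 genes of other epithelia (Epcam, Cdh1, Cldn3, Cldn4, Cldn7, Esrp1, Grhl2, Krt5, Krt14) had none higher and 1 lower in epididymal adipocytes from 6 to 14 months, Krt14 at -0.57. From 6 to 18 months 2 of these 9 were called lower, Krt14 at -0.82 and Cldn7 at -0.39, and from 14 to 18 months 1, Cldn7 at -0.51. Between depots over the ages none of them was called at the fold of 2, while 5 had a limma adjusted p under 0.05. The mean of 9 genes of the epididymis duct (Gpx5, Lcn5, Lcn8, Adam7, Cst11, Rnase10, Ros1, Ovch2, Pax2) was 3.99 to 4.23 in the 14-month epididymal arrays and 4.03 to 4.07 in the 18-month ones. It reached 4.73 in replicate 2 at 6 months, the array in which Krt8, at 6.78, had its highest value of the 18. None of these 9 duct genes was called from 6 to 14 months. At an unadjusted limma p under 0.05 there were 3, Gpx5, Lcn5 and Rnase10, all lower, and an ordinary analysis of variance called 1. Adam7 had 0.60 (limma adjusted p = 0.183) and fell by 0.99 from 14 to 18 months. In limma no marker of urothelium, of other epithelia or of the duct was called higher at 14 months, and neither were Krt8 and Krt18. Without a detection call, values of these lists may lie at or near background, where a rise could go unread. Which cells the rise of the mesothelial genes came from was not tested.

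The mesothelial genes were not the only marker list of another cell type with this course. Each list is given here as the mean of its log2 values in an array. Of all 23410 tested probe sets, 2392 were called higher and 1758 lower from 6 to 14 months in epididymal adipocytes. From 14 to 18 months 2728 were called higher and 2919 lower, and from 6 to 18 months 1875 were called lower. The mean of the 10 mesothelial genes was 6.72 to 6.83 at 6 months, 7.65 to 7.99 at 14 and 6.18 to 6.23 at 18 in epididymal adipocytes. The mean of 8 macrophage genes went from 7.81 to 7.97 at 6 months to 10.03 to 10.44 at 14 and 6.32 to 6.44 at 18, with 8 of 8 called higher at 14 and 7 of 8 lower at 18 against 6 months. The 8 endothelial genes had 6 of 8 called higher at 14 months and 6 of 8 lower at 18 against 6 months. From 14 to 18 months 8 of 8 were called lower, and the means were 7.86 to 7.99, 8.93 to 9.22 and 7.11 to 7.18. Fibroblast genes rose at 14 months, 8 of 8, from a mean of 8.60 to 8.83 to 10.19 to 10.62, and at 18 months had a mean of 8.71 to 8.78, with 1 of 8 called lower than at 6 months. The 6 smooth muscle genes had 3 called higher at 14 months. The 5 B-lineage genes had 3 called higher at 14 months and 2 called lower from 14 to 18 months, with group means of 6.50, 7.19 and 6.43 at the 3 ages. The 8 neutrophil genes lay the other way, with 2 called lower at 14 months, 4 called higher from 14 to 18 months and group means of 6.99, 5.53 and 7.29, where replicate 1 at 6 months had 9.54. Fat cell genes did not share the rise, with 0 of 9 called at 14 months and means of 12.22 to 12.24, 11.89 to 12.13 and 12.32 to 12.39. Of 8 immediate early genes, which respond to handling of tissue, 8 fell from 6 to 14 months, 5 rose from 14 to 18 months and 5 were lower at 18 than at 6 months, with group means of 11.30, 8.44 and 9.62. The part of these cells and of handling in the result for the mesothelial genes was not tested.

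**Figure D4:**
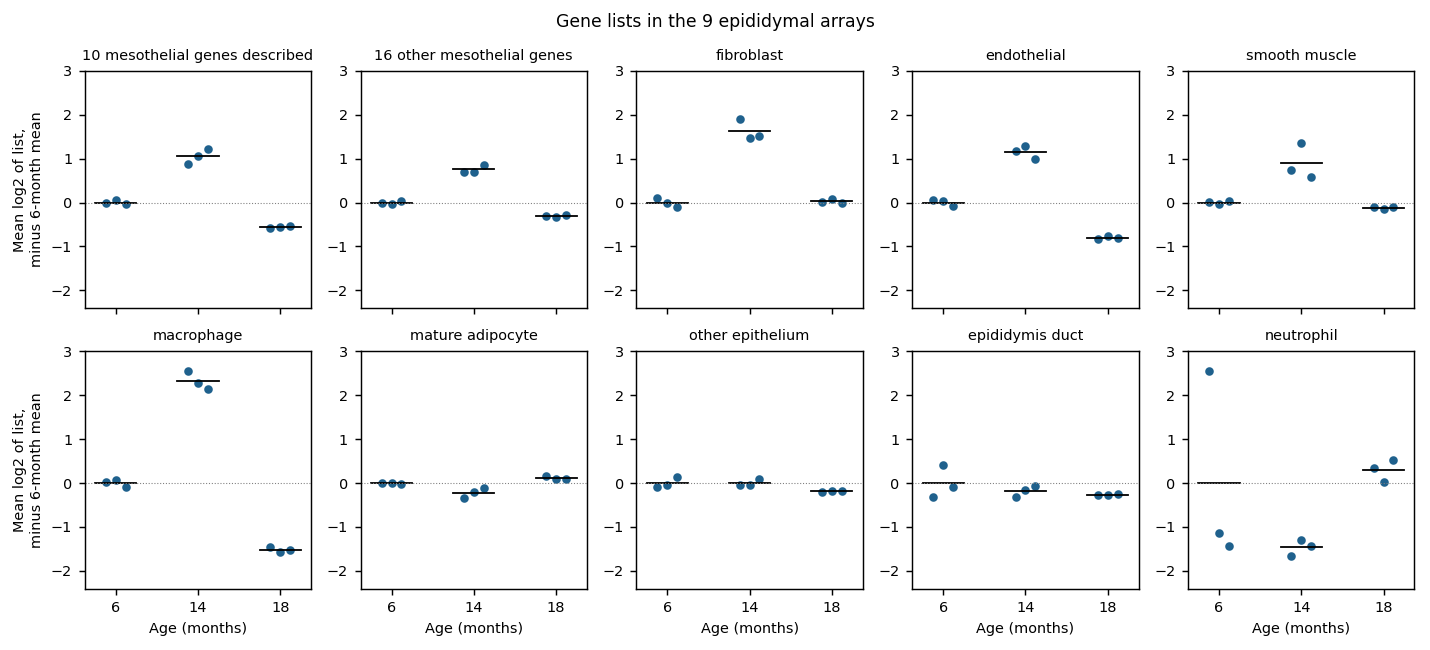
Mean log2 value of each gene list in the 9 epididymal arrays, minus its 6-month mean (y axis), by age in months (x axis), with a point for each array and a line for the group mean. The mesothelial mean was higher at 14 months by 1.05 and lower at 18 by -0.56, the macrophage mean higher by 2.32 and lower by -1.52, and the fat cell mean moved by -0.22 and 0.11.

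Among themselves, the genes moved together across the 9 epididymal arrays with the keratin pair apart. The 28 pairs formed without Krt8 and Krt18 had Pearson correlations of 0.81 to 0.99, with a median of 0.94, and the 17 pairs with either of them had 0.29 to 0.83, with a median of 0.66. These 9 points are 3 age groups of 3 arrays, so the correlations describe mostly the age pattern. With the age means removed, the 28 pairs ranged from -0.80 to 0.95.

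By likeness to the mean of the 10 genes over the 9 epididymal arrays, the nearest genes outside the lists were Sema3g, Wnt2b, Cd5l, Eln, Gpihbp1, Igfbp6, Clec10a, Spock2, Fmo2 and Ms4a4a, with Pearson correlations of 0.9974 for Sema3g to 0.9905 for Ms4a4a. Upk3b had 0.998 with this mean, of which it is itself a part. A total of 343 genes had a correlation above 0.95, which again reflects 3 age groups. Over all 18 arrays the likeness did not hold for the macrophage genes Cd5l, -0.51, and Ms4a4a, -0.22. It was 0.98 for Wnt2b, a Wnt ligand, and 0.99 for Igfbp6, which binds insulin-like growth factors. Sema3g, Eln and Spock2 had 0.98, 0.98 and 0.97, Fmo2 and Gpihbp1 0.96 each, and Clec10a 0.76. These 18 arrays also hold the gap between depots.

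Promoter sequence is given for 4 of the genes, Lrrn4 and Upk3b, which carry the pattern, and Krt8 and Krt18, which did not follow it. RefSeq windows (GRCm38.p6) were found for 6 of the 10 genes, Lrrn4, Upk3b, Gpm6a, Muc16, Krt8 and Krt18. The 250 bases before the annotated start are printed 5′ to 3′ in the direction of the gene. Capitals mark matches to either of the WT1-type motifs searched on both strands, GNGTGGGNG and GNGGGGGNG, which were found in 12.7% and 17% of all 32851 windows of this length.
Lrrn4 (chr2:132880863-132881112, minus strand): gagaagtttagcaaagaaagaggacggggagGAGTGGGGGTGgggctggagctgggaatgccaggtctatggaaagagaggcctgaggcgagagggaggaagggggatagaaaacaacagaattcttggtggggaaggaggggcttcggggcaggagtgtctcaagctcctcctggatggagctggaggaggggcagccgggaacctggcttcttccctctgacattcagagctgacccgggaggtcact
Upk3b (chr5:136038246-136038495, plus strand): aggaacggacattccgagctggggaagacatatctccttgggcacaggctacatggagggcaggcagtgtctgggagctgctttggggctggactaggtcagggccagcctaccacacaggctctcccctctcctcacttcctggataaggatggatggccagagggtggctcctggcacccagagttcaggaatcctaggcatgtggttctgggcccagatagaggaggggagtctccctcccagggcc
Krt8 (chr15:102004343-102004592, minus strand): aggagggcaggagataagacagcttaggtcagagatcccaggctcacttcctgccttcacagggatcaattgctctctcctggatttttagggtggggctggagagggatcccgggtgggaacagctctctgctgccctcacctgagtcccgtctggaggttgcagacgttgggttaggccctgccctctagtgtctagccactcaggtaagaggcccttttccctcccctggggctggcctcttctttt
Krt18 (chr15:102027966-102028215, plus strand): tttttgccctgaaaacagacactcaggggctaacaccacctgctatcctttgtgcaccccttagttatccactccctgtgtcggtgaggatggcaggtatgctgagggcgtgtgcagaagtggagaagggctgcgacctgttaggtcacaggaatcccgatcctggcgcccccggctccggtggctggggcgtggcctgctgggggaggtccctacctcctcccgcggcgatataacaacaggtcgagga
The Lrrn4 window held 1 match to each motif, and the matches overlap. The windows of Upk3b, Krt8 and Krt18 held none, nor did those of Muc16 and Gpm6a. The motif TATAAA, found in 12.4% of all windows on either strand, was in 1 of the 2 Gpm6a windows and in no other window of the 6 genes. A match is a run of letters and does not show binding.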

How the data were processed

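RNA of 18 pools was read on Affymetrix Mouse Gene arrays. The log2 values deposited by the authors were made in Partek with quantile normalization. The paper's methods name gcRMA for them, and the legend of a supplementary figure names RMA. They ran from 1.90 to 14.64 with array medians of 5.33 to 5.65, and they were not changed here. The 35556 probe sets of the table include 23410 that name a gene in the array's annotation. These were fitted together in limma (3.58.1, R 4.3.3) with the 6 group means as terms and Benjamini-Hochberg adjustment over all of them in each contrast. A call needed an adjusted p under 0.05 and, between depots, a fold of 2, as in the study's methods. A gene was read by the probe set that names it alone, the one with the highest mean where there were several. Named were all members, called or example genes of the lists, and the 10 nearest genes. The members and lists were chosen with earlier results of these data known. The number of arrays limits the precision. The fit was tested on simulated data. The labels do not say whether equal replicate numbers are the same pool of mice, and the samples were fitted unpaired. Correlations of deviations between arrays of equal number were -0.14 to 0.15 over 9 pairs, which cannot settle it. Alternatives changed the probe sets, test, variance prior, array weights, scaling, samples, block, fold limit and arrays, and 1, which left out 2 epididymal arrays, was chosen after seeing the data. Figures were drawn with Python 3.11.15.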

Additional observations from a re-analysis of the deposited data

Results flagged for a closer look

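The age change differed between bone marrow and epididymal adipocytes for the following genes, by the test of the difference itself in limma (change in bone marrow minus change in epididymal adipocytes, log2 scale). From 6 to 14 months the difference was -0.78 for Msln (adjusted p = 0.0113), -1.27 for Upk3b (adjusted p = 0.00145), -2.03 for Upk1b (adjusted p = 1.39e-05) and -1.95 for Krt19 (adjusted p = 3.55e-04). It was -0.88 for Lrrn4 (adjusted p = 0.0354), -1.99 for Gpm6a (adjusted p = 7.18e-04) and -0.94 for Muc16 (adjusted p = 0.00792) over the same ages. From 6 to 18 months it was 0.74 for Msln (adjusted p = 0.0231) and 1.24 for Upk3b (adjusted p = 0.00392). With ribosomal protein genes set equal, the 14-month differences of Msln, Lrrn4 and Muc16 were no longer called, at -0.48, -0.58 and -0.64.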

How the results depend on the processing

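Over the single genes, 3570 of 3648 values under an alternative kept their side of the limit, 57 lost a call and 21 gained one. The sign changed in 84, none of them called in either setting. With all probe sets in the fit or with an ordinary analysis of variance, 3 members fell in epididymal adipocytes from 6 to 18 months. With the compared groups alone 8 did (5 as reported, 3 to 6 with each array left out in turn). The shares of all probe sets called under these and the following alternatives are not given here. A moved count may therefore reflect more or fewer calls over all probe sets. Setting ribosomal protein genes equal left 4 of 7 members with a different 14-month change (6 to 8 with each array left out). Members with a different 18-month change were 2 as reported and 1 to 3 with each array left out. In bone marrow adipocytes, leaving out each array gave 0 to 1 members lower at 14 and at 18 months against 6 months. Of the other mesothelial genes, 10 and not 3 were lower in bone marrow with ribosomal protein genes set equal or with no fold limit. From 6 to 14 months 0 and not 1 of them fell with dim probe sets left out, with quantile normalization repeated or with the compared groups alone (0 to 1 with each array left out). From 6 to 18 months 7 fell with array weights and 4 with the compared groups alone (2 as reported, 2 to 4 with each array left out). Leaving out both 6-month epididymal arrays that stood apart leaves replicate 3 alone there, so no counts are given for that setting. With the replicate number as a block (replicate block), 7 members were lower in bone marrow over the ages. In epididymal adipocytes 8 rose and 0 fell from 6 to 14 months, 5 fell from 6 to 18 and 9 from 14 to 18. These counts are as without the block. In the settings with counts given, no other count of the members or of the other mesothelial genes moved by over 1.5 times. Between depots with no fold limit, 5 and not 0 of the other epithelial genes and 2 and not 0 of the duct genes were called. An ordinary analysis of variance called 1 and not 0 duct genes from 6 to 14 months, and 0 and not 1 from 14 to 18. Centring arrays on the median changed the median over all probe sets by -0.12 and setting ribosomal protein genes equal by -0.23 from 6 to 14 months in epididymal adipocytes, and by 0.19 and 0.17 from 14 to 18 months. The cause of these changes was not tested. No other probe set of a member could be tried, since each has 1, and the filter on dim probe sets removed Muc16. Signal over background was not given, which limits what can be said of the low bone marrow values.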
